A study of Equus caballus with 2 samples.

Results

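The genes described here are the regulators of the G1 phase of the cell cycle: the D-type cyclins *CCND1*, *CCND2* and *CCND3*, their kinases *CDK4* and *CDK6*, the CDK inhibitors *CDKN1A*, *CDKN1B*, *CDKN1C* and *CDKN2B*, and the transcription factor *MYC*. They were chosen by name, and 8 of the 10 names were found as symbols among the 21426 genes of the count matrices. *CDKN1B* and *CDKN2B* were not matched by symbol and are not analysed here. The cells were endometrial fibroblasts of 4 mares, taken at slaughter from healthy or mildly fibrotic endometria, grown at early passage on collagen-coated hydrogels and pooled before loading, and the mare of each cell was not used here. In the last 24 h all cells were kept without serum, in medium with bovine serum albumin. The control library received nothing further and the other library received 10 ng/ml of human recombinant TGF-β1. The MFGE8-treated cells are not analysed here.

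Progress from G1 into S phase is set by D-type cyclins, which rise with mitogens and activate CDK4 and CDK6. These kinases phosphorylate the retinoblastoma protein and so release E2F transcription factors. CIP/KIP inhibitors (p21, encoded by *CDKN1A*, and p57, encoded by *CDKN1C*) and INK4 inhibitors restrain the kinases, and MYC drives growth and ribosome production. In epithelial cells, TGF-β is known as a growth inhibitor that lowers MYC and induces CDK inhibitors, while fibroblasts can respond with growth, matrix production or contraction.

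Each library held the counts of unique molecular identifiers (UMIs, 1 per captured transcript) per gene and cell barcode. Of 4384 control barcodes, 3865 had 20000 or more UMIs, 3500 or more genes and a mitochondrial share under 4%, and of 5124 TGF-β1 barcodes 4513 passed. The kept cells carried 210497250 UMIs in the control and 219731144 in the TGF-β1 library, with medians of 50313 and 43142 per cell, and 2 kept barcodes occurred in both libraries. Of the fibroblast markers, *COL1A1* stood at 5608 CPM (UMIs per 1000000 UMIs of the kept cells) in the control and 6376 CPM in the TGF-β1 library, *COL3A1* at 4456 and 5583 CPM, *VIM* at 4399 and 2240 CPM, and *PDGFRA* at 50.5 and 16.7 CPM. Of the 4 endothelial markers, *VWF* had 99 and 45 UMIs, *KDR* 54 and 35, *PECAM1* 9 and 8 and *CDH5* 3 and 2. The immune markers *PTPRC* and *CD3E* had at most 2 UMIs in a library, whereas *CD68* stood at 42.6 and 43.1 CPM. No cell type lacking the G1 genes was at hand to measure the share given by free RNA. Of the 6 epithelial markers, *KRT8* stood at 114 CPM in the control and 4.48 CPM in the TGF-β1 library and *KRT7* at 19.3 and 7.05 CPM, while the other 4 were below 1 CPM in both, and the part of the keratin difference in the results was not tested. Each condition is a single library without replicates, so nothing was tested, and the treatment cannot be told apart from the preparation of its library. All intervals are exact at the 95% level and cover counting error only.

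*CCND1* was the regulator that differed most between the libraries, at more than 2-fold higher after TGF-β1, and *MYC* differed most in the other direction. *CCND2* was moderately higher, *CDK4*, *CDKN1A* and *CDKN1C* were moderately lower, and *CCND3* and *CDK6* stood at nearly the same level. Of the 8 genes, 1 was more than 2-fold higher in the TGF-β1 library, against 2.3% of the 7658 genes that averaged 10 CPM or more. None of the 8 was more than 2-fold lower, against 2.13% of those genes. At a limit of 1.5-fold, *CCND1* was higher (6.19% of all such genes were) and *MYC* was lower (6.48%). The 8 log2 ratios of TGF-β1 over control were positive for 4 genes and negative for 4, with a median of -0.12, beside 0.0082 over the 7658 genes, of which the middle 95% lay between -0.93 and 0.95. A median over 8 genes of opposite direction describes no common shift, so the genes are given one by one.

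**Figure D1:**
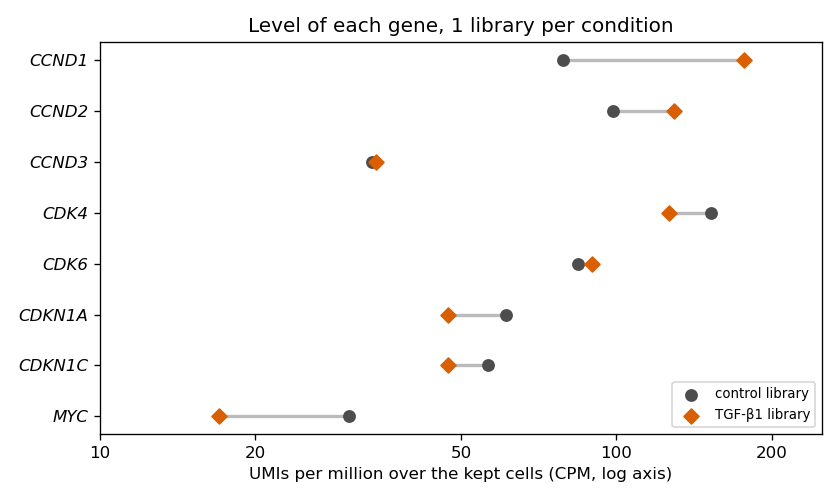
Level of each G1 regulator in the control library (grey circles) and the TGF-β1 library (orange diamonds), in CPM over the kept cells on a log axis, 1 library per condition. *CCND1* moved farthest to the right, from 78.9 to 176.5 CPM, *MYC* farthest to the left, from 30.4 to 17.0 CPM, and the points of *CCND3* nearly coincide.

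*CCND1* (ENSECAG00000038536), the D-type cyclin most closely tied to mitogen and adhesion signals in fibroblasts, was counted 16598 times in the control and 38784 times in the TGF-β1 library. This was 78.9 CPM against 176.5 CPM, 2.24-fold higher, with a log2 ratio of 1.16 (1.14 to 1.19). Only a small share of genes moved farther upward, since this ratio lay at percentile 98.3 of the 7658 genes. After every cell had been thinned to 20000 UMIs, so that both libraries were read at equal depth, a *CCND1* UMI was found in 64.2% of control cells (62.7% to 65.7%) and in 88.4% of TGF-β1 cells (87.5% to 89.3%). Without thinning the shares were 84.9% and 95.7%.

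The whole distribution of *CCND1* was displaced, and not only its upper end. The median thinned cell had 1 UMI in the control and 3 in the TGF-β1 library, the cell at the 90th percentile had 4 and 7, and the largest counts were 19 and 21. Cells with 7 or more UMIs made up 2.30% of the control and 12.8% of the TGF-β1 library. The Fano factor, the variance over the mean, was 2.28 in the control and 2.27 in the TGF-β1 library, above the medians of 1.15 and 1.14 over all genes. Those medians were not matched to the level of *CCND1*, so its spread was not compared with genes of like level.

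*CCND2* (ENSECAG00000012663), the second D-type cyclin, was counted 20734 and 28441 times. Its level was 98.5 CPM in the control and 129 CPM in the TGF-β1 library, 1.31-fold higher, with a log2 ratio of 0.39 (0.37 to 0.42). The share of thinned cells with *CCND2* was 81.6% in the control and 89.4% in the TGF-β1 library. Its Fano factor was 1.27 in the control and 1.26 in the TGF-β1 library, below those of *CCND1* and above the medians of all genes, again without a match for level.

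*CCND3* (ENSECAG00000023862), the third, was counted 7072 and 7522 times, or 33.6 and 34.2 CPM. The log2 ratio was 0.03 and its interval of -0.02 to 0.07 includes 0. A *CCND3* UMI was found in 45.3% of thinned control cells (43.7% to 46.8%) and in 46.8% of thinned TGF-β1 cells (45.4% to 48.3%), intervals that overlap.

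Together the D-type cyclins stood at 211 CPM without and 340.2 CPM with TGF-β1 (log2 ratio 0.69, 0.67 to 0.71), and their make-up differed. *CCND1* gave 37.4% of all D-cyclin UMIs in the control and 51.9% in the TGF-β1 library. The share of *CCND2* was 46.7% and 38.1%, and that of *CCND3* was 15.9% and 10.1%. Because a 3′ library depends on how well the 3′ end of each gene is annotated, the order of the cyclins within a library is less certain than the difference in shares between the libraries. In the control, 4.19% of thinned cells (3.58% to 4.87%) had none of the D-type cyclins and 24.7% had all of them. In the TGF-β1 library these shares were 0.842% (0.597% to 1.15%) and 37.3%. Cells with *CCND2* alone made up 16.0% of the control and 5.58% of the TGF-β1 library.

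**Figure D2:**
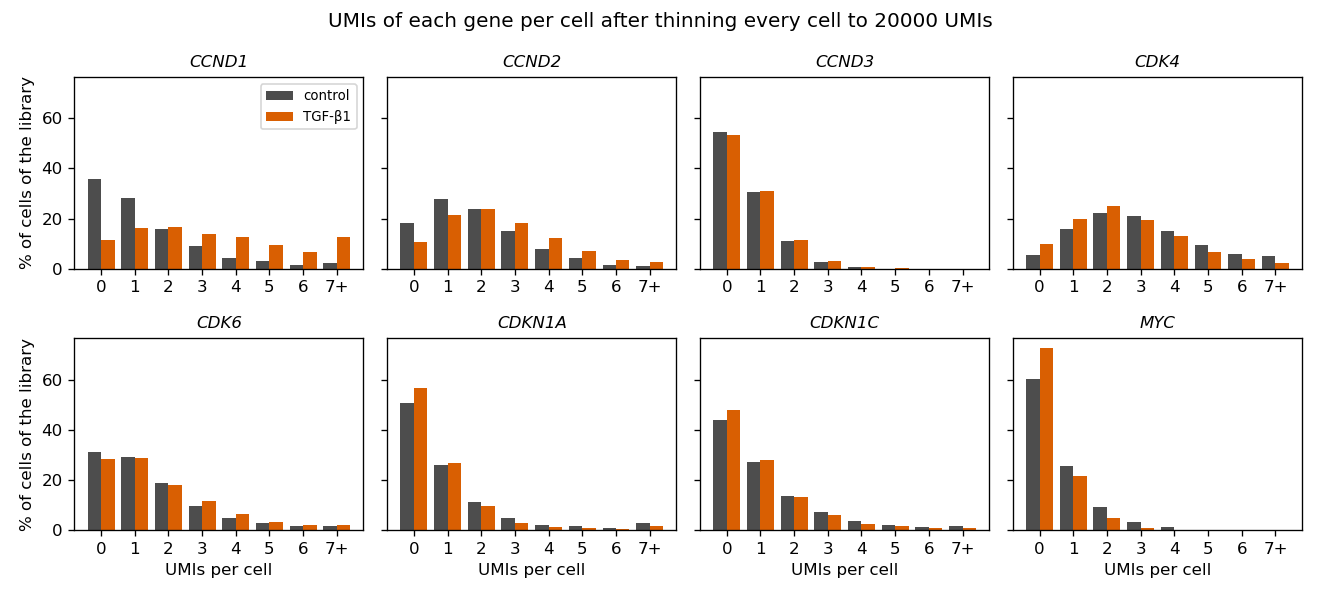
Share of cells of each library (vertical axis, %) by the number of UMIs of each G1 regulator in the cell (horizontal axis, with 7 or more pooled) after thinning each cell to 20000 UMIs, control in grey and TGF-β1 in orange. The share of cells at 0 was 35.8% and 11.6% for *CCND1*, 60.3% and 72.8% for *MYC*, and 54.8% and 53.2% for *CCND3*.

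Of the kinases of the D-type cyclins, *CDK4* was moderately lower and *CDK6* nearly level. *CDK4* (ENSECAG00000025015) was counted 32153 and 27719 times, at 153 CPM in the control and 126 CPM in the TGF-β1 library, 1.21-fold lower, with a log2 ratio of -0.28 (-0.30 to -0.25). It was found in nearly all cells, 94.4% of thinned control and 90.1% of thinned TGF-β1 cells. *CDK6* (ENSECAG00000016512) was counted 17748 and 19706 times, at 84.3 and 89.7 CPM, with a log2 ratio of 0.09 (0.06 to 0.12), and was found in 69.1% and 71.8% of thinned cells. The ratio of *CDK6* lay at percentile 61.3 of all genes and that of *CDK4* at percentile 18.1, both well inside the bulk. *CDK4* and *CDK6* together stood at 237 and 216 CPM (log2 ratio -0.14, -0.15 to -0.12).

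Both CIP/KIP inhibitors in the matrices were lower in the TGF-β1 library. *CDKN1A* (ENSECAG00000021543), which encodes p21, was counted 12838 and 10373 times, at 61.0 and 47.2 CPM, with a log2 ratio of -0.37 (-0.41 to -0.33). It was found in 49.5% of thinned control cells (47.9% to 51.1%) and 43.3% of thinned TGF-β1 cells (41.9% to 44.8%). *CDKN1C* (ENSECAG00000031389), which encodes p57, a maternally expressed imprinted inhibitor in mouse and human, was counted 11875 and 10354 times, at 56.4 and 47.1 CPM. Its log2 ratio was -0.26 (-0.30 to -0.22), and it was found in 56.3% and 52.3% of thinned cells. Summed, they stood at 117 and 94.3 CPM (log2 ratio -0.32, -0.34 to -0.29), and *CDKN1A* gave 51.95% and 50.05% of the sum.

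*CDKN1A* was the most uneven of the 8 genes between cells. Its Fano factor was 6.15 in the control and 6.26 in the TGF-β1 library, where the middle 95% of all genes ended at 4.16 and 3.61. Its median thinned cell had 0 UMIs in both libraries, and its richest cells had 60 and 55. The richest 10% of cells held 54.3% of its thinned UMIs in the control and 55.9% in the TGF-β1 library. Cells with at least 10 thinned UMIs numbered 58 in the control (1.501%, 1.14% to 1.94%) and 41 in the TGF-β1 library (0.908%, 0.653% to 1.23%), and they held 21.2% and 20.05% of the *CDKN1A* UMIs. The limit of 10 is a cut through a range: 32 control and 18 TGF-β1 cells had 8 or 9 UMIs, and 20 and 9 cells had 10 or 11.

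*MYC* (ENSECAG00000022059), the transcription factor of growth and ribosome production, was counted 6392 times in the control and 3741 times in the TGF-β1 library. It stood at 30.4 and 17.0 CPM, 1.78-fold lower, with a log2 ratio of -0.83 (-0.89 to -0.78) at percentile 3.17 of all genes. A *MYC* UMI was found in 39.7% of thinned control cells (38.1% to 41.2%) and in 27.2% of thinned TGF-β1 cells (25.9% to 28.6%). The difference held at the upper end too, where the richest control cell had 8 UMIs and the richest TGF-β1 cell had 4.

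The kept cells of both libraries were clustered together, and 8 rebuilt clusters held at least 50 cells of each library. The clusters were built from expression in these same cells, through 2000 variable genes, so the levels by cluster are descriptions. For *CCND1* the TGF-β1 library was the higher one in 8 of 8 clusters, by 0.80 to 1.46 on the log2 scale, and 6 of these ratios exceeded 2-fold. The levels did not overlap: the highest control cluster stood at 107 CPM and the lowest TGF-β1 cluster at 116 CPM. *CCND2* was also higher in 8 of 8, with log2 ratios from 0.21 to 0.55, and its highest control cluster, at 110.3 CPM, stood below its lowest TGF-β1 cluster, at 119 CPM.

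The lower level of *MYC* and *CDK4* was also shared by all clusters. *MYC* was lower in 8 of 8, with log2 ratios from -1.07 to -0.54, and the interval lay below 0 in all but the small cluster 7. *CDK4* was lower in 8 of 8 within a narrow range of -0.38 to -0.23. The inhibitors were less even: *CDKN1A* was lower in 4 clusters and higher in 4, from -0.67 to 0.31, and *CDKN1C* was lower in 6 and higher in 2, from -0.53 to 0.21. For *CDKN1A*, giving each cluster the same weight in both libraries moved the log2 ratio from -0.37 to -0.17. *CCND3* was higher in 4 and lower in 4, and *CDK6* was higher in 5 and lower in 3.

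**Figure D3:**
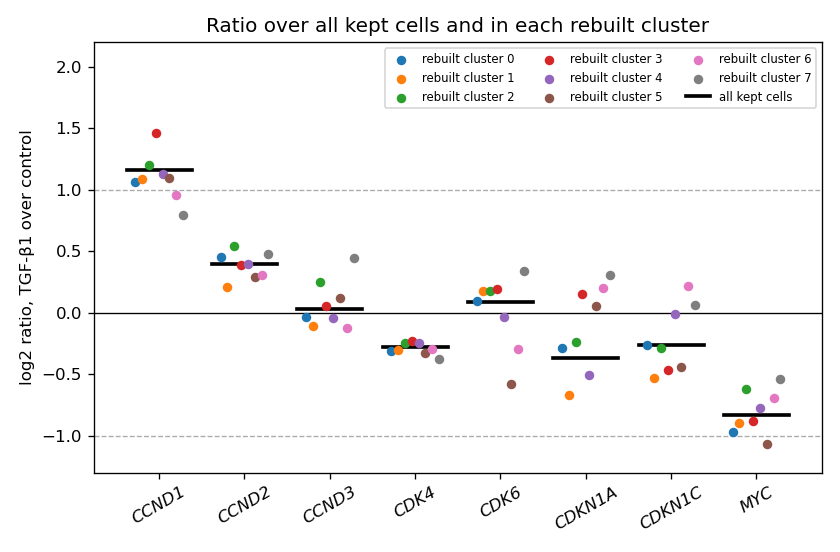
log2 ratio of TGF-β1 over control for each G1 regulator over all kept cells (black bars) and in each of the 8 rebuilt clusters (coloured points), with 2-fold limits as dashed lines. The points of *CCND1* (0.80 to 1.46) and *CCND2* (0.21 to 0.55) lie above 0 in every cluster, those of *CDK4* (-0.38 to -0.23) and *MYC* (-1.07 to -0.54) below 0 in every cluster, and those of *CCND3*, *CDK6*, *CDKN1A* and *CDKN1C* on both sides.

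Between clusters of 1 library, *CDK6* covered a wider range than the other cyclins and kinases. In the control it ran from 28.4 CPM in cluster 5, which was led by *CFD* and *CRABP2*, to 139 CPM in the cycling-like cluster 6. The TGF-β1 library ran from 19.0 CPM in the same cluster 5 to 117 CPM in cluster 2. Cluster 5 had at the same time the highest *CDK4* of all clusters, 214 CPM in the control and 171 CPM in the TGF-β1 library, and the highest *CCND3*, 51.6 and 56.2 CPM. Its cells were the shallowest, with medians of 42134 and 33842 UMIs, and the part of depth in these levels was not tested. *CCND1* was lowest in cluster 3, a cluster led by *SPP1* and *MATK* that also showed *KRT7* and *KRT8*, at 42.0 CPM in the control and 116 CPM in the TGF-β1 library, and it also had its largest ratio there.

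A small cluster, 7, carried much of the *CDKN1A*. It held 105 control and 54 TGF-β1 cells and was led by *CA4*, *KRT1*, *SUSD4*, *HBA2* and *GDF15*, with *CDKN1A* itself among its 10 leading genes, so the high *CDKN1A* is part of how it was found. No cell type is named for it. *CDKN1A* stood at 528 CPM in its control cells against 48.2 CPM in the other control cells, and at 653 CPM against 39.8 CPM in the TGF-β1 library. The cluster held 23.0% of all *CDKN1A* UMIs in the control and 16.7% in the TGF-β1 library. Without it, the log2 ratio of *CDKN1A* between the libraries was -0.28 (-0.32 to -0.24). *MYC* was lower in the cluster, at 16.4 against 30.7 CPM in the control and 11.3 against 17.1 CPM in the TGF-β1 library, while *CDK4* was higher, at 208 against 151 CPM and 160.0 against 126 CPM.

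Cells with signs of division were sought by 9 markers (*MKI67* was not matched by symbol), and a cell with at least 3 of them after thinning was counted as marker-positive. The set is approximate, since *UBE2C* alone was found in 19.8% of thinned control and 23.4% of thinned TGF-β1 cells. There were 101 marker-positive cells in the control (2.61%) and 102 in the TGF-β1 library (2.26%). They were deeper than the other cells, in the control with a median of 68611 against 50110 UMIs. The limit again cuts a range, since 164 control and 173 TGF-β1 cells had 2 markers and 30 and 35 had 3. In these cells both inhibitors were lower than in the other cells of their library. *CDKN1C* stood at 27.5 against 57.45 CPM in the control, a log2 ratio of -1.06 (-1.27 to -0.86), and at 32.0 against 47.6 CPM in the TGF-β1 library, -0.57 (-0.77 to -0.38). *CDKN1A* stood at 34.1 against 61.95 CPM in the control, -0.86 (-1.05 to -0.68), and at 41.0 against 47.4 CPM in the TGF-β1 library, -0.21 (-0.39 to -0.04).

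The kinases and *CCND3* were higher in marker-positive cells. *CDK6* was at 135 against 82.5 CPM in the control, a log2 ratio of 0.71 (0.62 to 0.81), and at 112 against 89.0 CPM in the TGF-β1 library, 0.33 (0.22 to 0.43). For *CDK4* the log2 ratios were 0.33 and 0.38, and for *CCND3* 0.46 and 0.38, with every interval above 0. *CCND1* differed by 0.17 (0.05 to 0.28) and 0.10 (0.02 to 0.18), beside medians of 0.09 and 0.05 over all genes. The intervals of *CCND2* and *MYC* included 0 in both libraries. Within the marker-positive cells alone, *CCND1* was higher in the TGF-β1 library by 1.10 on the log2 scale (0.96 to 1.24) and *MYC* differed by -0.74 (-1.07 to -0.42), and in the 3764 and 4411 other cells these ratios were 1.17 and -0.84. *CDK6* was lower in the TGF-β1 library among marker-positive cells, -0.27 (-0.41 to -0.14), and higher among the others, 0.11 (0.08 to 0.14). *CDKN1A* was higher in the TGF-β1 library among marker-positive cells, 0.26 (0.01 to 0.52), and lower among the others, -0.39 (-0.42 to -0.35), on 1 library of each kind. It was found in 36.6% of thinned marker-positive control cells (27.3% to 46.8%) and 38.2% of those after TGF-β1 (28.8% to 48.4%), intervals that overlap. *CDKN1A* was uneven between cells, and the counting interval of its ratio over these few cells leaves out that spread.

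**Figure D4:**
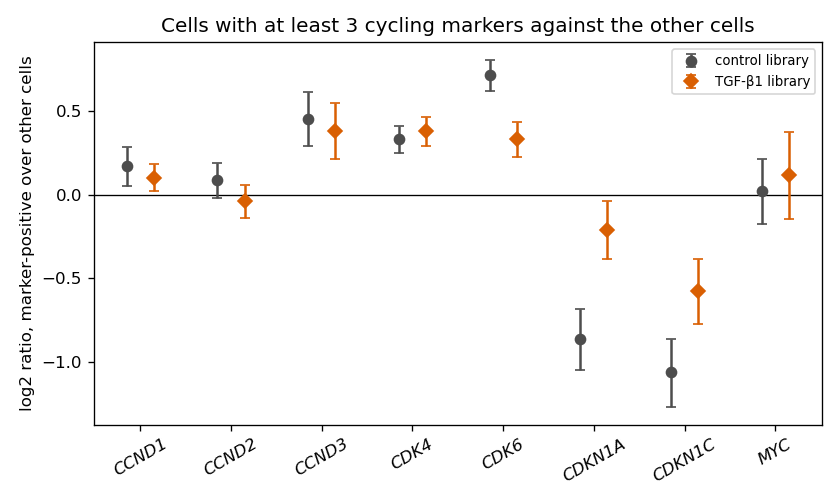
log2 ratio of the level in cells with at least 3 cycling markers (101 control, 102 TGF-β1) over the other cells of the same library for each G1 regulator, control in grey and TGF-β1 in orange, with bars for the exact 95% counting interval. *CDKN1A* and *CDKN1C* lie below 0 and *CCND3*, *CDK4* and *CDK6* above it in both libraries, and *CDKN1A* and *CDKN1C* lie farther below 0 in the control.

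Co-detection was read as the share of thinned cells with both genes of a pair against the product of the separate shares. All 28 pairs could be read in both libraries, each gene being found in 5% to 95% of the cells. The median log2 ratio of observed over expected was 0.0023 in the control and -0.0022 in the TGF-β1 library, beside 0.0063 and 0.0062 over all gene pairs in that range. The member pairs ran from -0.09 to 0.08 in the control and from -0.11 to 0.04 in the TGF-β1 library, inside the middle 95% of all pairs (-0.20 to 0.24 and -0.19 to 0.22). Pearson's r of the log values over the cells of a library ran from -0.11 to 0.11 over the pairs in the control and from -0.09 to 0.08 in the TGF-β1 library. The pairs share cells and libraries, and no test of pairing was made.

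*CCND1* and *CCND2* were found together in 53.1% of control cells, with 52.4% expected, and in 79.4% of TGF-β1 cells, with 79.05% expected. *CCND1* with *CDK4*, the pair that forms the main early G1 kinase, was found in 60.7% and 79.8% of cells, with 60.7% and 79.7% expected. *CCND1* with *CDKN1A* was found in 32.2% and 38.1%, with 31.8% and 38.3% expected. The lowest ratio in both libraries was that of *CDKN1A* with *MYC*, found together in 18.4% of control cells (19.6% expected) and 10.9% of TGF-β1 cells (11.8% expected). Put the other way, *MYC* was found in 37.3% of control cells with *CDKN1A* and 42.1% of those without it, and in 25.1% and 28.8% of TGF-β1 cells. *CDK6* was found in 68.7% of control cells with *CDK4* and 75.8% of those without it, and in 71.4% and 75.4% of TGF-β1 cells. The highest ratio of observed over expected was that of *CCND3* with *MYC* in the control, 19.0% against 18.0% expected.

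**Figure D5:**
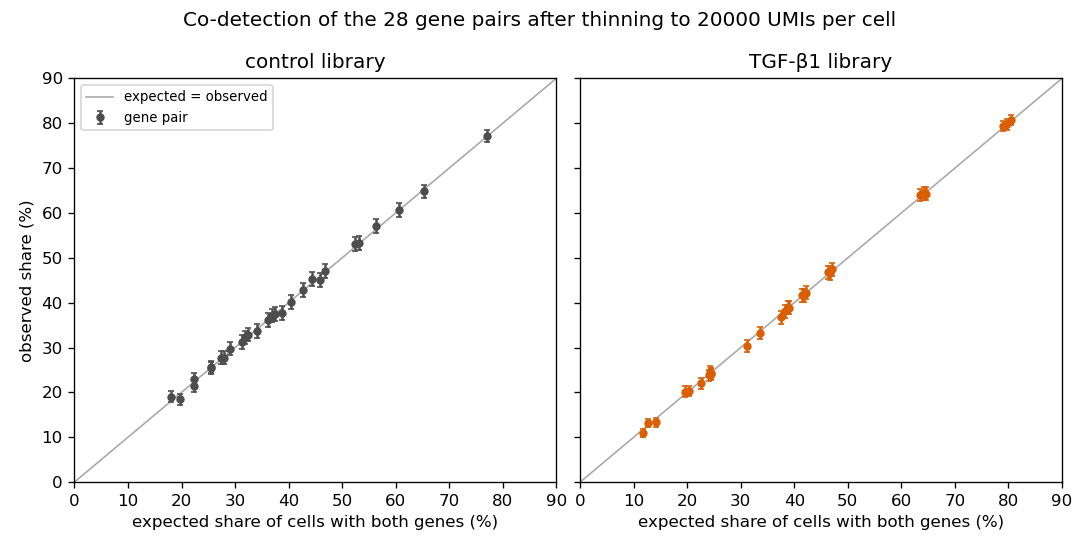
Observed share of cells with both genes of a pair (vertical axis, %, bars for the exact 95% interval) against the share expected from the separate genes (horizontal axis, %) for the 28 pairs of G1 regulators, control at left and TGF-β1 at right. The points lie near the line of equality, from 18.0% expected for *CCND3* with *MYC* upward in the control, and the bars cover the joint share alone.

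The wider pathway was read from lists of genes, of which those averaging 10 CPM or more were counted, except for the cycling markers. Of all 7658 genes at that minimum, 2.3% were more than 2-fold higher and 2.13% more than 2-fold lower. In lists this short, a single gene past the limit is no result about its list. Of 12 genes of the RB and E2F arm, 7 were higher and 5 lower after TGF-β1, the median log2 ratio was 0.04, and 0 passed 2-fold. *RB1*, which encodes the retinoblastoma protein that D-cyclin kinases phosphorylate, stood at 116 CPM in the control and 59.9 CPM in the TGF-β1 library, -0.96 (-0.99 to -0.92). *CKS1B*, a small partner of CDKs and of SKP2, was at 13.0 and 10.4 CPM, and *RBL1* and *RBL2*, which encode the pocket proteins related to RB1, were at 10.4 and 11.2 CPM and at 32.6 and 33.6 CPM.

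Among 6 genes of the other INK4 inhibitors and of cyclin D turnover, 4 were higher and 2 lower after TGF-β1, with a median log2 ratio of 0.16. The only INK4 inhibitor of the 6 was also the only gene more than 2-fold lower. This was *CDKN2C*, the INK4 inhibitor p18, at 35.5 CPM in the control and 12.3 CPM in the TGF-β1 library, with a log2 ratio of -1.53 (-1.60 to -1.47). *GSK3B*, the kinase that marks cyclin D1 and MYC for breakdown, stood higher, at 128 and 192 CPM, 0.58 (0.56 to 0.60). *CDKN2A*, below the CPM minimum, was at 5.60 and 5.35 CPM.

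In the MYC network, 8 of 11 genes were higher and 3 lower, with a median log2 ratio of 0.20 and 1 past 2-fold. *MYCL*, a relative of *MYC*, stood at 6.57 CPM in the control and 21.3 CPM in the TGF-β1 library, 1.70 (1.61 to 1.79), opposite in direction to *MYC*. *MXI1*, which opposes MYC at its binding partner MAX, was at 15.5 and 26.1 CPM, 0.75 (0.69 to 0.81), and *MAX* was at 71.9 and 68.8 CPM. *MYCN*, the third relative, was named after its values were seen and lay far below the CPM minimum, with 27 UMIs in the control and 146 after TGF-β1 (log2 ratio 2.37, 1.77 to 3.02).

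The known targets of MYC stood on both sides. Of 25, 14 were higher and 11 lower after TGF-β1, and their median log2 ratio was 0.02, close to the 0.0082 of all genes, and 1 was more than 2-fold higher. At a limit of 1.5-fold, 3 were higher and 0 lower, against 6.19% and 6.48% of all genes averaging 10 CPM or more. *TFRC*, the transferrin receptor, stood at 31.6 and 75.9 CPM, 1.27 (1.22 to 1.31), and *ODC1*, the first enzyme of polyamine synthesis, at 154 and 288 CPM, 0.90 (0.88 to 0.92). The nucleolar proteins *NCL* and *NPM1* were at 231 and 231 CPM and at 720.0 and 668 CPM.

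Among 6 genes that feed into the CDK inhibitors, 1 was higher and 5 lower, with a median of -0.28 and none past 2-fold. *SMAD3*, a transducer of TGF-β, was at 34.7 and 21.4 CPM, -0.70 (-0.75 to -0.65), and *SMAD2* at 76.5 and 53.1 CPM, -0.53 (-0.56 to -0.49).

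Of the 9 cycling markers, only 2 averaged 10 CPM or more, 1 higher and 1 lower after TGF-β1, with a median log2 ratio of -0.32. Counted from 1 CPM upward, 8 of the 9 stood lower and 1 higher, and the median was -0.67, beside -0.01 over the 12116 genes at that minimum. *TOP2A*, the topoisomerase of dividing cells, was at 13.2 and 8.25 CPM, -0.67 (-0.76 to -0.59), and *UBE2C*, a ubiquitin carrier of mitosis, at 19.8 and 20.1 CPM, 0.02 (-0.04 to 0.09). *CDC20*, which activates the anaphase-promoting complex, and the mitotic kinase *CDK1*, both under 10 CPM, were past 2-fold lower, at 4.57 and 1.77 CPM and at 6.77 and 2.89 CPM. The shares of thinned cells with a marker were relatively closer than the levels for *CDC20*, at 1.89% and 1.33%. The same held for *ASPM*, at 1.92% and 1.84% beside 4.75 and 2.43 CPM. For *CCNA2* they were nearly equal, at 1.63% and 1.64% beside 3.00 and 1.96 CPM. They were relatively farther apart than the levels for *CDK1*, at 8.74% and 3.46%, and for *UBE2C*, at 19.8% and 23.4%.

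Likeness of pattern was measured by Pearson's r of the log2 CPM over 16 points, the 8 clusters of each library. These points share the libraries and the cells that were clustered, so no p is given. How much of r follows the difference between the libraries was not measured. The genes nearest to *CCND1* were *GPN2* (0.961), *PCOLCE2* (0.933), *CDADC1* (0.933), *IGFBP3* (0.920) and *KCNQ5* (0.920). *MYC* was most like *HNRNPH2* (0.962), *CREB3L1* (0.947), *RPS2* (0.938), *PABPC1* (0.928) and *KRT8* (0.924). For *CCND2* these were *TMSB4X* (0.933), *TPM1* (0.932), *GNPNAT1* (0.931), *GLRX2* (0.931) and *ARPC2* (0.929).

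Of these neighbours, *KRT8* and *IGFBP3* were also used to split the cells within a library. Their likeness was read from these same cells, so the splits are descriptions and no separate evidence. In the 997 control cells with a thinned *KRT8* UMI, *CCND1* stood at 63.3 CPM against 84.7 CPM in the 2868 without, and *CDKN1A* at 42.3 against 68.1 CPM, while *MYC* was at 33.6 against 29.2 CPM. Within the TGF-β1 library, the 1768 cells with a thinned *IGFBP3* UMI had *CCND1* at 193 CPM, against 165 CPM in the 2745 without, *CDKN1A* at 41.5 against 51.2 CPM and *MYC* at 17.8 against 16.5 CPM.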

How the data were processed

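UMI counts per gene and cell barcode were deposited by the authors for each library, made with Cell Ranger (7.1.0 per the methods and labels, 8.0.1 per the file headers) against EquCab3.0 with the Ensembl annotation. The study removed doublets with Souporcell after this step. Neither that step nor another doublet caller was applied here. The submitters' notes also name Seurat 5 and edgeR 4.2.2. The study's test within its clusters was not repeated.

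Genes were taken by symbol, and 5196 of the 21426 features had no symbol. Coordinates and sequences were not used here. Cells were kept from 20000 UMIs and 3500 genes upward where the 13 mitochondrial genes took less than 4%. Counts were summed over kept cells, scaled to CPM and compared as log2 ratios, TGF-β1 over control, with no pseudocount and exact binomial 95% intervals. Shares of cells and co-detection were read after thinning each cell to 20000 UMIs. Clusters were rebuilt in Seurat 5.3.0 (SeuratObject 5.2.0, R 4.3.3) after canonical correlation integration (resolution 0.5, 30 dimensions, 2000 variable genes) and were not matched to the study's numbers. Sums, intervals and figures came from scipy 1.17.1, pandas 2.3.3, numpy 2.4.6 and matplotlib 3.10.9 under Python 3.11.15. The scripts were tested on simulated data.

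The genes and lists were chosen with earlier results of these data known. The text names all the G1 regulators and, of each list, the genes past 2-fold at a mean of at least 10 CPM, or its 2 largest changes where fewer passed. A few other genes (*RBL1*, *RBL2*, *CDKN2A*, *MAX*, *MYCN*, *NCL*, *NPM1*, *CDC20*, *CDK1*, *CCNA2*, *ASPM*, *COL1A1*, *COL3A1* and the endothelial and immune markers) were added after their values were seen. Genes of like pattern are the 5 with the highest r for the 3 regulators with the largest ratio. *E2F1*, *MYCBP*, *WDR43* and *HSPE1* were not matched by symbol, and *CD14*, listed in more than 1 row, was left out. The results of 1 further list are not reported here. The alternatives tried were other cell filters, scalings, limits and clusterings. The rebuilt cluster with *CDKN1A* among its leading genes was left out as an alternative added after seeing the data.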

Additional observations from a re-analysis of the deposited data

How the results depend on the processing

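The ratios of the 8 G1 regulators were recomputed under 11 alternatives: all deposited barcodes, a mitochondrial limit of 6%, 10000 UMIs as the minimum, removal of cells beyond percentile 98 of UMIs, marker-positive cells left out, per-cell CPM averaged, median-of-ratios scaling, totals without mitochondrial genes, thinning to 20000 UMIs, equal cluster shares in both libraries and the *CDKN1A*-led cluster left out. No ratio changed sign under any of them. *CCND1* stayed between 1.13 and 1.20, *MYC* between -0.86 and -0.81, and *CDKN1A* between -0.41 and -0.17. The count of regulators more than 2-fold higher was 1 and the count lower 0 in all 11. At a 1.5-fold limit the count lower was 1 (*MYC*). Under another thinning seed, thinning to 10000 UMIs, a limit of 2 UMIs, without marker-positive cells and with the expectation taken within clusters, the median co-detection lay between -0.02 and 0.01 in the control and between -0.01 and 0.0026 in the TGF-β1 library. Single pairs spread more widely at a limit of 2 UMIs, from -0.46 to 0.25 in the control and from -0.32 to 0.32 in the TGF-β1 library. At resolutions of 0.3 and 0.8, *CCND1* and *CCND2* were higher and *CDK4* and *MYC* lower in all 6 and all 11 clusters. Without integration 1 cluster held at least 50 cells of each library, so little was left to compare. No paired analysis was possible because cells were not assigned to mares here. Free RNA, doublets and differences between mares or cultures are outside the intervals.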
